A study of Mus musculus with 4 samples.

Results

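Oligodendrocyte precursor cells were picked from snRNAseq of the mouse hypothalamic arcuate nucleus (ARC) by a gate on 10 marker genes, and 719 of 39176 kept nuclei passed it. A nucleus was a member when it held at least 1 UMI (unique molecular identifier, a single captured transcript) of *Pdgfra*, at least 1 UMI of 2 or more of *Cspg4*, *Olig1*, *Vcan*, *Matn4* and *Tnr*, and had 0.15% or more of its UMIs in these 6 genes. Fewer than 2 of the myelin genes *Mag*, *Mog*, *Mal* and *Ermn* could be detected in it. Of 41649 deposited barcodes, nuclei were kept when their detected genes lay between 200 and 7000, their UMIs stayed under 25000 and mitochondrial transcripts made up under 15%.

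The study compared mice given DOCA-salt, an excess of the mineralocorticoid deoxycorticosterone together with salt, with Sham mice, to learn which cells of the ARC change their transcripts in this model of hypertension. All mice were wildtype C57BL/6J males of 10 weeks of age at collection. DOCA-salt mice carried a subcutaneous pellet of deoxycorticosterone acetate for 3 weeks and could drink a NaCl solution beside water, whereas Sham mice had surgery without a pellet and drank water. Each of the 4 libraries pooled nuclei from the ARC punches of a pair of mice, and values below are given for DOCA-salt 1 and 2 and then Sham 1 and 2 unless stated. The pool was the replicate in every comparison between treatments (n = 2 per group), and punches take in whatever cells lie in the circle cut, so cells of neighboring areas can be present.

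Oligodendrocyte precursors are glia that keep dividing in the adult brain and give rise to oligodendrocytes, the cells that wrap axons in myelin. *Pdgfra* encodes the receptor for their main mitogen, platelet-derived growth factor, and *Cspg4* the NG2 proteoglycan on their surface. They receive synaptic contacts from neurons, and as they commit to differentiation they switch on *Gpr17*, *Bmp4* and *Enpp6*, lose *Pdgfra* and later make myelin proteins. Around the ARC and median eminence new oligodendrocytes continue to be formed in adult mice.

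The gate found 195, 372, 26 and 126 precursors. Their median UMI counts were 1947, 2064, 5547.5 and 3747.5, and their summed UMIs were 544218, 1041278, 167008 and 614490. Both Sham libraries were thus deeper per nucleus than both DOCA-salt libraries, and depth and treatment cannot be told apart in a comparison of detection. A count of 3 UMIs, taken as the floor of a sum, was 5.51, 2.88, 18.0 and 4.88 CPM (UMI counts scaled to the same library total of 1e6), which makes Sham 1 the least precise library. Intervals and floors in the text cover counting error only. Between 1 and 44 barcodes of kept nuclei were shared by a pair of libraries, and 0 were precursors in both.

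Of the kept nuclei 2865 held *Pdgfra*, which was 5.94%, 6.74%, 14.1% and 8.60% of the libraries, highest in the deepest one. Among them 1824 had 2 or more further gate genes, 806 also reached the share of UMIs, and 719 remained after the myelin step. Most members carried more markers than the rule asked for, with 247 holding all 5 further genes, 233 holding 4, 154 holding 3 and 85 holding 2. Just inside the limit on the share of UMIs, from 0.15% to under 0.2%, lay 120 members, and just outside it, from 0.1% to under 0.15%, lay 184 nuclei that met the other conditions. A further 46 nuclei were out for having 1 further gene only, and 90 members held 1 of the 4 myelin genes. The median member had 0.568%, 0.379%, 0.332% and 0.348% of its UMIs in the gate genes.

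The gate genes themselves are described without a test, since they chose the nuclei. *Pdgfra* stood at 926, 786, 796 and 775 CPM in precursors, 39.99 times the mean of 20.5 CPM in all other kept nuclei. *Cspg4* stood at 527, 357, 611 and 465 CPM (39.1 times the other nuclei), and *Matn4*, a matrix adaptor protein, at 623, 582, 491 and 465 CPM (30.4 times). *Vcan*, the proteoglycan versican, was at 673, 435, 431 and 504 CPM (19.9 times), and the transcription factor gene *Olig1* at 731, 771, 503 and 607 CPM (10.3 times). *Tnr*, which encodes the matrix glycoprotein tenascin-R and is also made by other cells, was at 606, 415, 509 and 571 CPM and only 5.72 times higher. The gate genes were high in all 4 libraries, and DOCA-salt 1 had the largest sum of the 6 at 4087 CPM, against 3346, 3341 and 3388 CPM. The myelin genes of the exclusion step summed to 7.35, 55.7, 83.8 and 40.7 CPM in precursors against a mean of 1217 CPM in nuclei gated as mature oligodendrocytes (2 or more of these 4 genes and no *Pdgfra*).

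The label of the gate was then compared with precursor genes it had not used. The 20 markers on this list together reached 6029, 4624, 5006 and 5481 CPM in precursors against a mean of 1294 CPM in other nuclei, a ratio between 3.71 and 4.60 in every library. *C1ql1*, a secreted C1q-like protein of precursors, was at 184, 209, 132 and 173 CPM and 9.01 CPM elsewhere. *Olig2*, the partner of *Olig1* in the lineage, was at 248, 226, 132 and 238 CPM and 13.5 CPM elsewhere. *Ptprz1*, a receptor phosphatase that binds chondroitin sulfate, was at 1417, 1085, 1108 and 1338 CPM and 4.75 times higher than elsewhere. The nuclei therefore carried the wider precursor program in all 4 libraries, as a description of nuclei that were picked for related genes.

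Among 4823 genes with a mean of 50 CPM or more in precursors, 145 were at least 2-fold above the other nuclei in all 4 libraries and 39 at least 5-fold, while the median gene had a ratio of 0.98. Outside the gate the largest ratio belonged to *Sapcd2*, a regulator of spindle orientation, at 77.2, 68.2, 23.95 and 48.8 CPM and 36.5 times the other nuclei. *Neu4*, a sialidase that trims sialic acid from glycans, followed at 193, 163, 156 and 186 CPM (30.7 times), and *Gpr17*, a receptor of precursors about to differentiate, at 362, 263, 222 and 199 CPM (24.7 times). The remaining 12 of the leading 15 were *Susd5*, *Snx22*, *C1ql1*, *Afap1l2*, *Itga9*, *Olig2*, *Sema3d*, *Col5a3*, *Etv4*, *Traf4*, *Col27a1* and *Caskin2*, with ratios from 22.7 down to 10.9. They include an integrin chain (*Itga9*), a guidance cue (*Sema3d*), 2 collagen genes (*Col5a3* and *Col27a1*) and a transcription factor of growth factor signaling (*Etv4*).

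**Figure D1:**
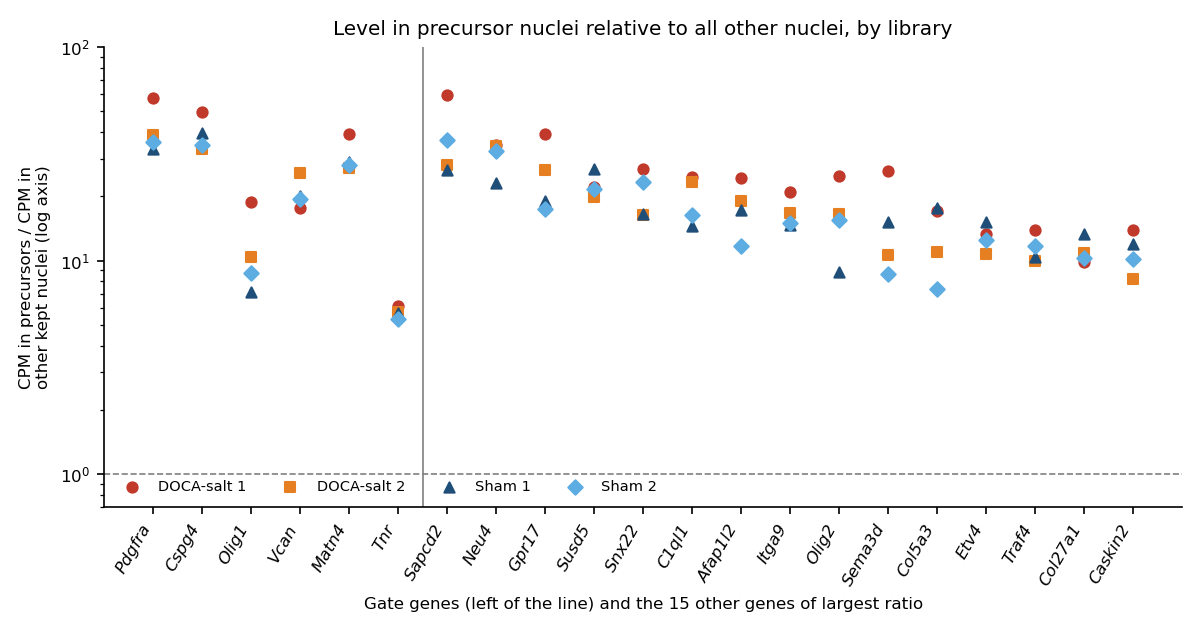
Ratio of the level in precursors to that in all other kept nuclei (vertical log axis) for the 6 gate genes and the 15 other genes of largest mean ratio, with 1 point per library. All points lie above 1, the gate gene *Tnr* lies lowest among the gate genes with a mean ratio of 5.72, and *Sapcd2* highest among the others with 36.5.

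Matrix genes formed the second group that stood out, and *Ptprz1* and *Xylt1* belong to this list and to the precursor markers above. The 22 chondroitin sulfate genes summed to 4494, 3873, 3958 and 3938 CPM against a mean of 1169 CPM in other nuclei, a ratio of 3.32 to 3.55. In this list the core proteins *Cspg5* (neuroglycan C, 4.00 times) and *Bcan* (brevican, 4.72 times), the aggrecan gene *Acan* (9.09 times) and *Xylt1*, the enzyme that starts the glycan chain (8.23 times), were above the other nuclei, whereas its relative *Xylt2* was at 1.17 times. A list of 26 genes of the Notch, Wnt and BMP pathways, which act on differentiation, summed to a mean ratio of 1.41. Its most abundant gene was *Apc*, and the Notch target *Hes5* was at 4.21 times. In astrocytes the list summed to a mean of 1590.5 CPM, against 1520.4 CPM in precursors. Growth factor receptors other than *Pdgfra* were near the other nuclei (sum 1.14 times). Receptors for neurotrophins, which astrocytes and neurons also make, were among them, with *Ntrk2* at 700, 614, 587 and 762 CPM and 1.11 times.

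Transmitter receptors and channels summed to levels close to those of the other nuclei. The 23 glutamate receptor genes summed to 1.05 times the other nuclei (from 1.00 to 1.13 by library), the 14 GABA receptor genes to 0.824 times and the 28 channel genes to 1.02 times. Neurons also make most of these receptors and channels. *Cacng4*, an auxiliary subunit of AMPA receptors, was at 362, 249, 395 and 509 CPM and 4.39 times the other nuclei. *Kcnip3*, which encodes a calcium-binding partner of potassium channels, was at 200.3, 167, 126 and 219.7 CPM and 6.27 times. *Gria2*, the AMPA receptor subunit that limits calcium entry, was at 1501, 1087, 1060 and 1235 CPM and 1.16 times.

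Genes of other cell types were present in the precursor sums, and their part in the results was not tested. The 12 neuron markers summed to 15235, 12300, 15814 and 17624 CPM, which was 0.658, 0.737, 0.687 and 0.766 of the level in all other nuclei, with most UMIs from *Meg3* and none of the 12 at 0. After thinning to 1000 UMIs per nucleus, *Snap25*, a synaptic gene of neurons, was found in 43.1%, 53.0%, 52.0% and 41.3% of precursors and in 44.2%, 54.6%, 55.7% and 41.4% of nuclei gated as astrocytes, which should lack it. Astrocyte markers (12 genes, most UMIs from *Slc1a2*) summed to 2828, 3502, 3371 and 3318 CPM, 1.17 times the other nuclei, against a mean of 9310 CPM in astrocytes. Myelin genes outside the gate (12 genes) summed to 1165, 1532, 2281 and 1725 CPM against 6914 CPM in mature oligodendrocytes.

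Markers of rarer types were low. Microglia markers (12 genes) summed to 213, 176, 102 and 142 CPM, endothelial markers (9 genes, led by *Itm2a*) to 75.3, 130, 47.9 and 83.0 CPM, and tanycyte and ependymal markers (10 genes, led by *Vim*) to 141, 45.1, 95.8 and 65.1 CPM. Their mean ratios to the other nuclei were 0.868, 0.56 and 0.828, with microglia markers above 1 in both DOCA-salt libraries (1.25 and 1.14) and tanycyte markers above 1 in Sham 1 (1.35). Fibroblasts also make *Pdgfra*. Their markers together with those of mural cells (12 genes, led by *Rgs5*) summed to 31.2, 56.7, 35.9 and 84.6 CPM, the fibroblast gene *Slc6a13* was at 0 in all 4 libraries, and 0 of 719 members held 2 or more of the fibroblast genes. Peptide genes of neurons differed widely between libraries, in precursors and in the other nuclei. *Pmch*, which encodes melanin-concentrating hormone, was at 1.84, 1007, 18.0 and 8.14 CPM in precursors and at 29.6, 2877, 44.1 and 31.1 CPM in other nuclei. *Pomc* was at 82.7, 19.2, 77.8 and 169 CPM in precursors and at 352, 38.7, 174 and 305 CPM in other nuclei.

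**Figure D2:**
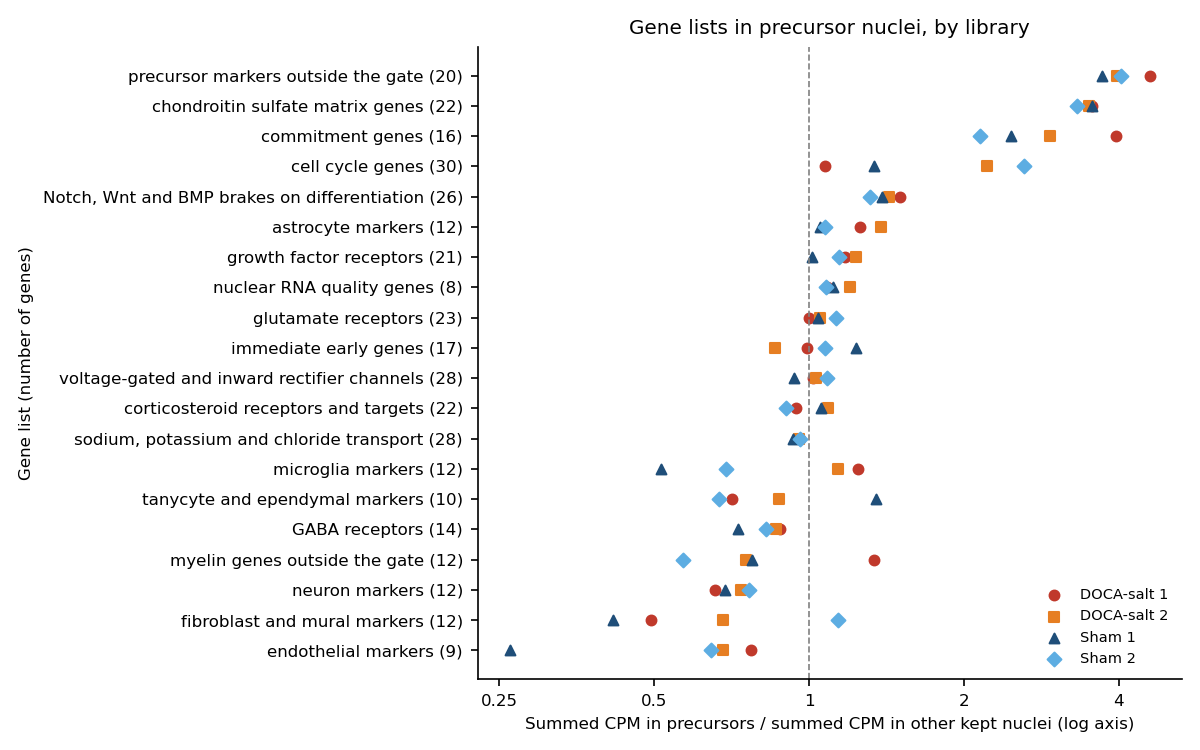
Summed CPM of each gene list in precursors divided by that in all other kept nuclei (horizontal log axis), with 1 point per library and the number of genes of each list in brackets. Precursor markers outside the gate and chondroitin sulfate genes lie at 3 to 5 times in every library, neuron markers between 0.658 and 0.766, and the sparse lists (microglia, endothelial, fibroblast and mural, tanycyte, cell cycle) spread most between libraries.

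Precursors made up 1.89%, 1.97%, 1.18% and 1.62% of kept nuclei (95% Wilson intervals 1.65 to 2.17%, 1.78 to 2.18%, 0.807 to 1.72% and 1.37 to 1.93%). The share was 1.93% ± 0.0535 under DOCA-salt and 1.40% ± 0.314 in Sham (SD, n = 2 each), a difference of 0.528 percentage points with no overlap between groups. An exact two-sided permutation test gave p = 0.333, the smallest value that 2 pools against 2 can give. Leaving out 1 library gave differences from 0.306 (without Sham 1) to 0.750 points (without Sham 2). The difference moved with the myelin step of the gate, a comparison chosen after seeing the data. That step removed 10 of 205, 36 of 408, 17 of 43 and 24 of 150 nuclei that had met the other conditions, the largest part in the deepest library, and without it the shares were 1.99%, 2.16%, 1.95% and 1.93% and the difference 0.131 points. With every nucleus thinned to 1000 UMIs before the gate (nuclei below 1000 UMIs left out), the shares were 1.10%, 1.12%, 0.776% and 0.907%, 0.273 points apart. In the same setting without the myelin step the difference was 0.252 points. A share of nuclei cannot tell more precursors from fewer nuclei of other types.

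Set against mature oligodendrocytes alone, precursors were 33.97%, 14.7%, 4.09% and 10.0% of the 2 classes together. The 2 DOCA-salt libraries changed places compared with the share of all nuclei, and both stayed above both Sham libraries. The group means were 17.3 points apart with no overlap (exact permutation p = 0.333, the smallest possible value). The 2 DOCA-salt pools lay further apart than DOCA-salt 2 and Sham 2 did. Detection of 2 myelin genes picked deep nuclei, with a median of 2868, 3621, 10269 and 4565 UMIs in mature oligodendrocytes. The class took 610 of 2203 nuclei of Sham 1 and 379 of 10307 of DOCA-salt 1, and the part of other cells with free myelin RNA in values for this class was not tested. A stricter oligodendrocyte gate (the 4 myelin genes at 0.1% or more of UMIs) gave 44.1%, 21.8%, 12.9% and 15.7%, a difference of 18.7 points.

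**Figure D3:**
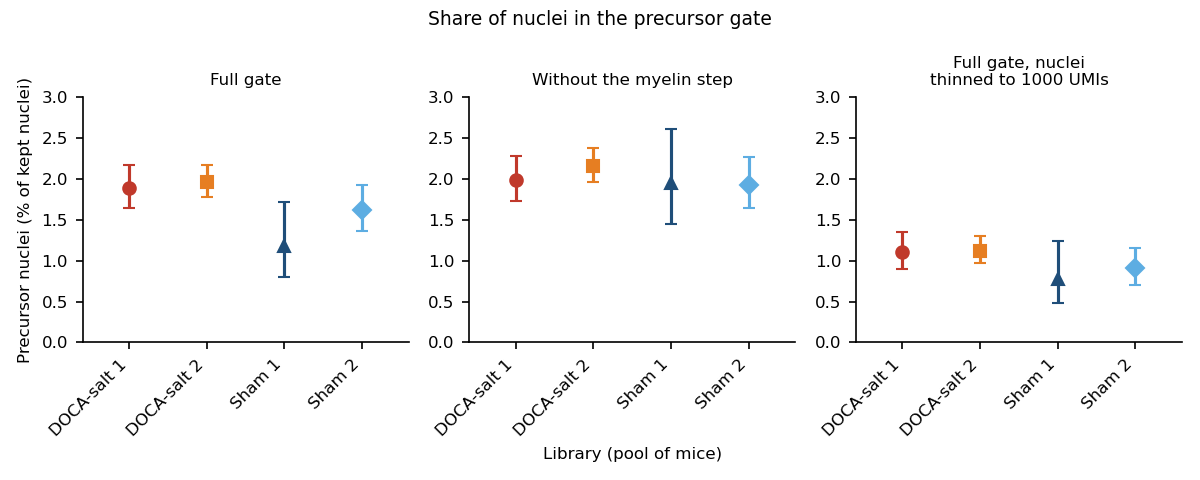
Precursors as a percentage of kept nuclei in each library, with 95% Wilson intervals as bars, for the full gate, the gate without its myelin step, and the full gate on nuclei thinned to 1000 UMIs. The 2 Sham points are lowest in the left and right panels (1.18% and 1.62% at left), and in the middle panel all 4 lie between 1.93% and 2.16%.

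Commitment to differentiation was read from 6 genes (*Gpr17*, *Enpp6*, *Bmp4*, *Itpr2*, *Bcas1* and *Tns3*) as the share of precursors that held 2 or more of them after thinning to 1000 UMIs. This share was 16.3%, 6.31%, 4.00% and 10.7%, with counts of 25 of 153, 20 of 317, 1 of 25 and 13 of 121 nuclei. In astrocytes thinned alike it was 1.36%, 0.554%, 1.43% and 2.19%, below the precursors of the same library. The groups overlapped, and the mean was 11.3% ± 7.09 under DOCA-salt and 7.37% ± 4.77 in Sham (SD, n = 2 each, exact permutation p = 0.667). The difference of 3.95 points turned to −1.06 without DOCA-salt 1 and was 8.97 without DOCA-salt 2, 0.581 without Sham 1 and 7.32 without Sham 2. The Sham 1 value rested on a single random thinning. In the draw made for the fit without doublets, which removed 0 Sham precursors, it was 3 of 25 (12%), and the difference in that fit was 1.30 points. Without thinning the shares were 39.0%, 23.7%, 65.4% and 50.0%, now higher in both Sham libraries, which are the deeper ones. The gene found most often was *Gpr17*, in 33.3%, 25.6%, 36.0% and 21.5% of thinned precursors and in at most 1.43% of astrocytes. *Bmp4* was found in 1, 1, 0 and 0 precursors and *Enpp6* in 2, 2, 1 and 1 (not thinned), and the gate itself asks for *Pdgfra*, which is lost at that step.

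Members with 3 or more UMIs of *Gpr17* numbered 20, 18, 3 and 15. Outside the gate 25, 31, 17 and 31 kept nuclei had as many, so in each library more nuclei rich in *Gpr17* lay outside the gate than in it. Within the gate, *Neu4* was at 410, 166, 263 and 236 CPM in the 56 members rich in *Gpr17* (56 UMIs in all) and at 170, 163, 135 and 178 CPM in the 663 others, near equal in DOCA-salt 2 and higher in the other libraries. *Mbp*, *Tns3* and the neuron list were higher in the rich members of some libraries and lower in others. These levels describe nuclei chosen by 1 gene and carry no test.

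Genes of dividing cells were sparse. Cell cycle genes (30 genes) summed to 103, 186, 114 and 229 CPM, 1.80 times the other nuclei on average and from 1.07 to 2.62 times by library. The share of thinned precursors with 2 or more of these genes was 1.31%, 1.89%, 4.00% and 1.65% (2 of 153, 6 of 317, 1 of 25 and 2 of 121 nuclei), against 0%, 0.277%, 0.476% and 0.219% of astrocytes thinned alike, with a mean of 1.60% ± 0.414 under DOCA-salt and 2.83% ± 1.66 in Sham (SD, n = 2 each, exact permutation p = 0.667). The difference of −1.23 points was −0.0529 without Sham 1 and −2.40 without Sham 2. In a second random thinning, drawn for the fit without doublets, which removed 0 Sham precursors, the Sham counts were 0 of 25 and 4 of 121, so single counts depended on the draw. The difference in the fit without doublets was −0.283 points. With 2000 UMIs per nucleus, 1 of 96, 4 of 191, 2 of 25 and 5 of 89 nuclei held 2 or more of these genes. The means were then 1.57% and 6.81%, a difference of −5.24 points with no overlap (exact permutation p = 0.333). *Mki67* and *Top2a*, 2 genes of cells in division, occurred together in 0, 3, 0 and 3 precursors. Without thinning the shares were 3.59%, 4.84%, 19.2% and 14.3%, again highest in the deeper libraries.

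To ask which genes of precursors differed between DOCA-salt and Sham, UMI counts were summed over the precursors of each library and compared by the quasi-likelihood test of edgeR, with the false discovery rate (FDR) over all 9395 tested genes. A single gene passed an FDR of 0.05, which is 0.0106% of the genes tested, and 0 genes passed with a higher level under DOCA-salt. At an unadjusted p under 0.05 there were 596 genes (6.34%), 235 higher (2.5%) and 361 lower (3.84%), and DESeq2 also called 1 gene, with 121 at an unadjusted p under 0.05. The median log2 fold change of DOCA-salt over Sham was 0.02. In simulated counts this test called 12.5% of changes of 1 log2 unit, so most changes of that size can go uncalled. The groups did not overlap for 3378 genes (36%), 1843 of them higher under DOCA-salt (19.6%) and 1535 lower (16.3%). No pair of sums in a group agreed within sampling noise (chi-square of their counts over genes, divided by its degrees of freedom, 4.08 for DOCA-salt and 1.49 for Sham, whose totals differ), so each pool was counted as 1 replicate. With 1 library left out, a single pool remained in 1 group and was assumed to vary like the other group. These fits called 138 genes without DOCA-salt 1, 6 without DOCA-salt 2, 16 without Sham 1 and 7 without Sham 2, and 20 genes were called with no filter on low counts. *Bc1* was among them each time. Without DOCA-salt 1 or Sham 1, and with no filter, the calls included the peptide genes of neurons *Pmch*, *Oxt*, *Hcrt* and *Ghrh*, whose levels differed between pools of 1 group.

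The gene that fell was *Bc1*, a small non-coding RNA made by RNA polymerase III and best known from neurons, where it acts on translation in dendrites. It is annotated on chromosome 7 from 144914470 to 144914637 on the plus strand of GRCm38, and repeats derived from it elsewhere in the genome can share its reads, so its level is uncertain. *Bc1* was at 198, 333, 1982 and 2428 CPM in precursors, which were 108, 347, 331 and 1492 UMIs. Both Sham libraries lay far above both DOCA-salt libraries, with a log2 fold change of −3.06 (SE 0.318, edgeR FDR 2.05e-04). *Bc1* is on the list named for nuclear RNA quality, which was drawn up with earlier results of these data known. Of its 7 tested genes, 3 were lower and 0 higher at an unadjusted edgeR p under 0.05 (42.9% beside 6.34% of all tested genes). *Bc1* itself is 1 of the 3. Lower beside *Bc1* were *mt-Atp8* (−1.44) and *Gm42418* (−1.76), which missed the FDR. The part of RNA quality was not tested. *Bc1* was found in 33.3%, 55.6%, 96.2% and 99.2% of precursors, with at most 50 UMIs in 1 nucleus. The other nuclei held 208, 312, 2221 and 3146 CPM, so precursors were at 0.772 to 1.07 of the level in the rest of their library. The same test gave −3.44 (SE 0.305, FDR 0.0430) in mature oligodendrocytes, where it was the single call among 14045 genes (0.00712%), and −3.42 (SE 0.301, FDR 0.00173) in astrocytes, where 5 of 12941 genes were called (0.0386%). In all other kept nuclei the log2 fold change was −3.40 (SE 0.333), and 0 of 16539 genes were called there. The difference of the fold change between precursors and either class was 0.37 (SE 0.158, FDR 1.00) and 0.35 (SE 0.128, FDR 0.981).

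Other genes of lowest p whose groups did not overlap missed the threshold in the same edgeR test (FDR of 0.305 or more). They are 9 genes, of which 8 passed with no filter on low counts (all but *Smap1*) and 8 without DOCA-salt 1 (all but *Meis2*). *Slc24a5*, a potassium-dependent sodium and calcium exchanger best known from pigment cells, was at 80.9, 61.5, 11.97 and 16.3 CPM (44, 64, 2 and 10 UMIs) with a log2 fold change of 2.16 (SE 0.415, FDR 0.305). *Meis2*, a homeobox transcription factor gene, was at 107, 37.5, 11.97 and 11.4 CPM (2.50, SE 0.581, FDR 0.493). Both were higher in each DOCA-salt library than in each Sham library, and both had 2 UMIs in Sham 1, under the floor. The other nuclei showed the same order, with *Meis2* at 123, 32.4, 5.07 and 5.37 CPM and *Slc24a5* at 69.8, 69.5, 21.5 and 23.3 CPM. *Cmip* was at 123, 106, 246 and 275 CPM (−1.23, SE 0.254, FDR 0.353), the cohesin subunit gene *Smc1a* at 88.2, 49.0, 192 and 148 CPM (−1.34, SE 0.310, FDR 0.493) and the linker histone gene *Hist1h1e* at 9.19, 8.64, 65.9 and 35.8 CPM (−2.33, SE 0.503, FDR 0.431). The remaining 4 were *mt-Atp8* (−1.44), the peptide gene *Nts* (−1.87), *Smap1* (−1.35) and the activin receptor gene *Acvr2b* (−1.83), all lower in both DOCA-salt libraries. These 4 genes, *Cmip*, *Smc1a* and *Hist1h1e* were also lower under DOCA-salt in the other nuclei, with log2 fold changes from −2.50 to −0.71. *Nts* (−2.41, FDR 0.00179), *Slc24a5* (2.04, FDR 0.0326) and *mt-Atp8* (−2.20, FDR 0.0203) were among the calls in astrocytes.

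Genes that mark precursors were then set beside all tested genes. Of the 139 genes at least 2-fold above the other nuclei in all 4 libraries, gate genes left out, 0 passed the FDR, 85 had a log2 fold change above 0 and the median was 0.07 (0.02 over all genes). At an unadjusted p under 0.05 there were 13 higher and 4 lower, 12.2% beside 6.34% of all tested genes (2.5% higher and 3.84% lower). Groups did not overlap for 36 higher and 17 lower, 38.1% beside 36% of all genes. *Chadl*, a chondroadherin-like matrix protein, was at 123, 146, 77.8 and 66.7 CPM (log2 fold change 0.93, SE 0.289, edgeR FDR 0.758). *Lims2*, an adaptor at integrin contacts, was at 88.2, 82.6, 47.9 and 43.9 CPM (0.89, SE 0.320, FDR 0.758) and *Ramp1*, a co-receptor for calcitonin gene-related peptide, at 167, 197, 108 and 114 CPM (0.69, SE 0.265, FDR 0.758). The lipid transporter gene *Mfsd2a* was at 143, 139, 65.9 and 104 CPM, and *G0s2*, an inhibitor of fat breakdown, at 95.6, 95.1, 59.9 and 60.2 CPM. In the other direction, *Limd1* was at 44.1, 43.2, 83.8 and 74.9 CPM, *Syne2* at 49.6, 34.6, 77.8 and 68.3 CPM and *Zeb2*, a transcription factor that favors myelination, at 125, 112, 192 and 161 CPM.

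**Figure D4:**
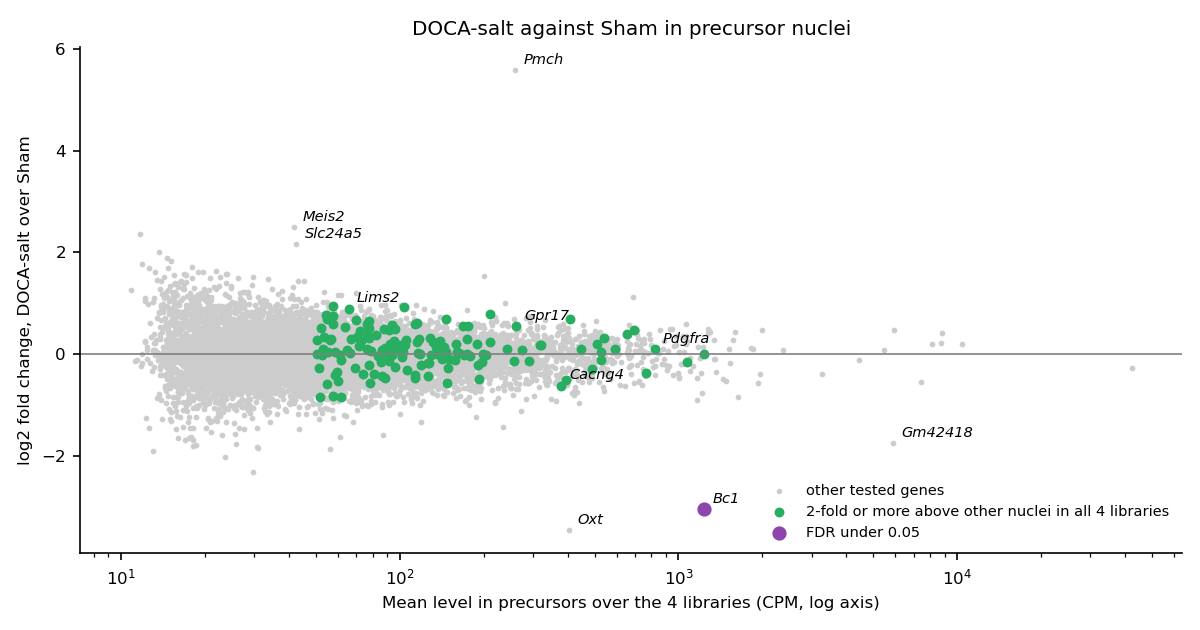
Log2 fold change of DOCA-salt over Sham (vertical) against the mean level in precursors over the 4 libraries (horizontal log axis, CPM) for the 9395 tested genes. *Bc1* at −3.06 is the 1 gene with an FDR under 0.05, genes 2-fold or more above other nuclei in all libraries cluster around 0, and *Pmch* and *Oxt* lie far out with overlapping groups.

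Genes of precursor identity, commitment and myelin were compared by list, and 0 genes of any list in this paragraph passed the FDR. Of the 20 precursor markers outside the gate, 0 were higher and 1 lower at an unadjusted edgeR p under 0.05 (median log2 fold change −0.00), and the lower one was *Cacng4* (−0.62, SE 0.273, FDR 0.758). Of 11 tested commitment genes 1 was higher and 0 lower (9.09%, median 0.09). It was *Lims2*, while *Gpr17* was higher in both DOCA-salt libraries with 0.55 (SE 0.271, FDR 0.792). Of 9 tested myelin genes outside the gate 0 were higher and 2 lower (22.2% beside 6.34% of all tested genes and 3.84% lower, median −0.49), among them *Cldn11*, a tight junction protein of the myelin sheath, at 11.03, 10.6, 59.9 and 21.2 CPM (−1.58, SE 0.572, FDR 0.758). In the other nuclei the whole list summed to 870, 2028, 2941 and 3035 CPM, also lower in both DOCA-salt libraries. The part of free myelin RNA was not tested. Of 2 tested cell cycle genes *Smc2* was at −0.48 (0.083 without Sham 2) and *Pcna* at 0.60 (1 UMI in Sham 1; list median 0.06).

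Signaling lists held 0 calls, and their shares at an unadjusted p under 0.05 were 7.14% for growth factor receptors, 11.1% for the Notch, Wnt and BMP list and 0% for chondroitin sulfate genes, beside 6.34% of all tested genes. Among 14 tested growth factor receptors *Tgfbr1* was higher at an unadjusted p under 0.05 (45.9, 34.6, 5.99 and 22.8 CPM, the Sham 1 value being 1 UMI and under the floor, 1.05, SE 0.456, edgeR FDR 0.758) and 0 were lower (median −0.03). Among 18 tested genes of the Notch, Wnt and BMP list 2 were higher and 0 lower (median 0.04). These were *Hes5*, a repressor that Notch switches on, at 296, 232, 198 and 120 CPM (0.79, SE 0.293, FDR 0.758, and 0.37 without Sham 2), and its relative *Hes6*, at 47.8, 56.7, 18.0 and 32.5 CPM (0.86, SE 0.380, FDR 0.758). The 15 tested chondroitin sulfate genes had 0 in either direction (median −0.00), with *Bcan* at 759, 856, 629 and 527 CPM (0.47, SE 0.264, FDR 0.832).

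For transmitter receptors, 21 tested glutamate receptor genes gave 0 higher and 1 lower at an unadjusted edgeR p under 0.05 (4.76% beside 6.34% of all tested genes and 3.84% lower, median −0.20). Of 13 tested GABA receptor genes 1 was higher and 0 lower (7.69%, median 0.06). It was *Gabrg1*, a GABA-A receptor subunit, at 176, 161, 95.8 and 91.1 CPM (0.84, SE 0.267, FDR 0.758). The 26 tested channel genes gave 0 higher and 3 lower (11.5%, median −0.15), among them *Kcnj10* (−0.56, SE 0.260, FDR 0.773). This gene, which encodes the inward rectifier Kir4.1 of glia, was at 112, 145, 186 and 190 CPM.

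Corticosteroid receptors and targets were examined because DOCA acts on the mineralocorticoid receptor. Of 22 genes on this list 15 were tested, 0 were called, and 1 was higher and 2 lower at an unadjusted p under 0.05 (20% beside 6.34% of all tested genes, median −0.04). *Nr3c2*, the mineralocorticoid receptor, was at 23.9, 11.5, 29.9 and 17.9 CPM, with overlapping groups (−0.38, SE 0.557, edgeR FDR 0.948, and 0.15 without DOCA-salt 2). *Nr3c1*, the glucocorticoid receptor, was at 82.7, 98.9, 138 and 142 CPM, lower in both DOCA-salt libraries (−0.63, SE 0.267, FDR 0.758). *Hsd11b2*, the enzyme that shields the mineralocorticoid receptor from glucocorticoids, had 0 UMIs in all 4 sums, which at the floor of 3 counts allows up to 5.51, 2.88, 18.0 and 4.88 CPM.

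Among the targets, *Sgk1*, a kinase gene that aldosterone switches on in epithelia, was at 55.1, 54.7, 41.9 and 14.6 CPM (1.32, SE 0.441, edgeR FDR 0.758, and 0.35 without Sham 2 or 1.88 without Sham 1). *Klf9* was at 90.0, 52.8, 132 and 114 CPM (−0.82, SE 0.311, FDR 0.758). Its log2 fold change was −1.18 without DOCA-salt 1, where it was called, and −0.45 without DOCA-salt 2. Neither *Sgk1* nor *Klf9* passed the FDR with all 4 libraries, and the 2 Sham libraries of *Sgk1* differed by more than its lower DOCA-salt value differed from Sham 1. The groups of *Fkbp5* (55.1, 35.5, 35.9 and 22.8 CPM), *Tsc22d3* (62.5, 110, 71.9 and 55.3 CPM), *Per1* (27.6, 42.3, 18.0 and 30.9 CPM), *Klf15* (5.51, 31.7, 23.95 and 27.7 CPM), *Nfkbia*, *Errfi1*, *Sgk3*, *Mt1* and *Mt2* overlapped. *Zbtb16* was at 22.05, 10.6, 47.9 and 22.8 CPM (−0.99, SE 0.540, FDR 0.819) and *Ddit4* at 22.05, 22.1, 18.0 and 17.9 CPM. *Dusp1*, *Cdkn1a*, *Pdk4*, *Hsd11b1*, *Sult1a1* and *Plin4* were too low to be tested, with at most 23.95 CPM in a library.

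Transport of sodium, potassium and chloride gave 0 genes in either direction at an unadjusted p under 0.05 among 26 tested (median −0.02). *Atp1b1*, the beta subunit of the sodium pump, was at 1233, 1239, 1144 and 1066 CPM, with an edgeR log2 fold change of 0.14 (SE 0.263, FDR 0.966). Immediate early genes, which respond to activity and to handling of tissue, gave 0 of 5 tested in either direction (median −0.16), with *Jund* at 160, 173, 204 and 199 CPM.

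Lists of other cell types held 0 calls in the precursor sums. Neuron markers had 0 higher and 2 lower of 12 tested at an unadjusted p under 0.05 (16.7% beside 6.34% of all tested genes, median −0.09), *Rbfox3* (−0.76) and *Stmn2* (−0.65). Astrocyte markers had 2 higher and 0 lower of 12 (16.7%, median 0.16), *Agt* (1.00) and *Ntsr2* (0.82), and both were high in DOCA-salt 2 alone, with *Agt* at 165, 473, 156 and 163 CPM. Without DOCA-salt 2 their log2 fold changes were −0.00028 and −0.074. In the other nuclei *Agt* was also highest in DOCA-salt 2 (402 CPM, against 180, 212 and 216 CPM). Of the sparse lists 3 microglia, 3 endothelial, 1 mural and 2 tanycyte genes were tested (medians 0.32, 0.00, −1.45 and −0.64), and the mural gene *Rgs5* was lower at an unadjusted p under 0.05, a difference that turned to 0.96 without Sham 2. Of 7 tested genes on the list named for nuclear RNA quality, 0 were higher and 3 lower (42.9%, median −0.55). The lower ones were *Bc1* itself, *mt-Atp8* and *Gm42418*. The last, a gene model that collects ribosomal RNA reads, was at 4408, 1060, 9497 and 8484 CPM (−1.76, SE 0.457, edgeR FDR 0.735). *Gm42418* was called without DOCA-salt 1 (−3.10) and with no filter (−1.73), and stood at −1.08 without DOCA-salt 2. Of these only *Bc1* passed the FDR, and the part of RNA quality in the other results was not tested.

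A last comparison asked whether precursors differed from mature oligodendrocytes or astrocytes in how their genes stood between treatments, by the class by treatment term of an edgeR model with the library as a block. In nuclei gated as mature oligodendrocytes the 12 neuron markers summed to 19562, 15222, 21508 and 19770 CPM. The mean sum was 19015 CPM, against 15243 CPM in precursors and 21468 CPM in all nuclei other than precursors. The part of nuclei of other types in this class was not tested. Against mature oligodendrocytes 9 of 11852 genes passed an FDR of 0.05 (0.0759%), and against astrocytes 2 of 11629 (0.0172%). At an unadjusted p under 0.05 there were 520 (4.39%) and 528 (4.54%). They were 4 hemoglobin genes of red blood cells, the neuronal peptide genes *Oxt* and *Ghrh*, the histamine enzyme gene *Hdc*, *S100b* and *2310022B05Rik*. Leaving out 1 library called 8, 2, 10 and 9 genes against oligodendrocytes and 4, 9, 8 and 7 against astrocytes (each library left out in the usual order). For 4 of these genes a single nucleus held much of the UMIs of a library. *Oxt* was at 5.51, 124, 108 and 1385 CPM in precursors, where 1 nucleus of Sham 2 held 777 of 851 UMIs, and without that nucleus Sham 2 was at 121 CPM. *Hdc* was at 7.35, 7.68, 210 and 4.88 CPM, where 1 nucleus of Sham 1 held 34 of 35 UMIs. *Ghrh* was at 11.03, 5.76, 11.97 and 101 CPM, where 1 nucleus of Sham 2 held 45 of 62 UMIs, and *Hba-a1* at 29.4, 69.1, 23.95 and 32.5 CPM, where 1 nucleus of DOCA-salt 2 held 28 of 72 UMIs. Without Sham 2 the log2 difference of *Oxt* to astrocytes went from −2.03 to 0.015. That to oligodendrocytes went from −3.80 to −2.80 without Sham 2, where it was still called. It went to −1.97 without DOCA-salt 2, where it was not called. Without Sham 2 the difference of *Ghrh* to oligodendrocytes went from −2.12 to 0.66 and that to astrocytes from −2.42 to −1.13, neither called. That of *Hba-a1* to oligodendrocytes was 1.78 without DOCA-salt 2 and 1.89 without Sham 2. The 4 hemoglobin genes were called in neither of these fits. The difference of *Hdc* to oligodendrocytes ranged from −4.61 to −0.19 with 1 library left out.

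*S100b*, a calcium-binding protein of glia, was spread over nuclei, with at most 6 UMIs in 1 precursor. It was at 129, 141, 234 and 197 CPM in precursors, at 72.5, 72.0, 161 and 218 CPM in mature oligodendrocytes and at 41.5, 65.7, 150 and 140 CPM in all nuclei other than precursors. Both Sham libraries were above both DOCA-salt libraries in each set. The log2 fold change was −0.66 in precursors (SE 0.256, FDR 0.758), and the difference to mature oligodendrocytes was 0.91 (SE 0.192, FDR 0.0106) with the fold change of precursors nearer 0. It was not called with the stricter oligodendrocyte gate, which called 4 genes (*Hba-a1*, *Hbb-bs*, *Oxt* and *Hbb-bt*, with the *Oxt* difference at −1.30 instead of −3.80), or without doublets, though its difference was then 1.08 and 0.88, nor without DOCA-salt 2 or Sham 2 (0.82 and 0.45), and 0 genes were called without the library block.

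**Figure D5:**
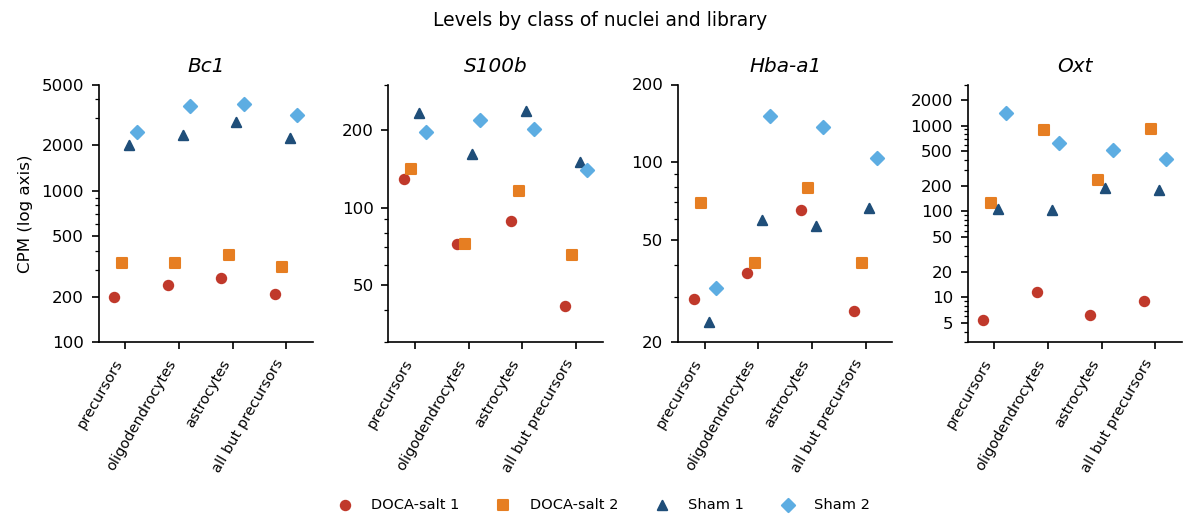
Levels of *Bc1*, *S100b*, *Hba-a1* and *Oxt* (vertical log axes, CPM) in precursors, mature oligodendrocytes, astrocytes and all nuclei other than precursors, with 1 point per library. *Bc1* separates both Sham libraries (1982 and 2428 CPM in precursors) from both DOCA-salt libraries in every class, and the *Oxt* point of Sham 2 at 1385 CPM in precursors holds 1 nucleus with 777 UMIs.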

How the data were processed

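Single nuclei of ARC punches from 4 pools, 2 DOCA-salt and 2 Sham, were sequenced by a droplet method. The deposited files hold raw UMI counts per gene and barcode, which the authors made with Cell Ranger 3.0.1 on GRCm38 (mm10), as the submitters' processing notes name them. All other steps were done here from these counts. Barcodes were kept by the study's limits, precursors were gated, and UMIs were summed per library. Depth per nucleus and the floor of 3 counts limit precision, shares carry Wilson intervals, and shares were compared between pools by exact permutation tests.

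Sums were tested with edgeR 4.0.16 (R 4.3.3; filterByExpr, TMM, quasi-likelihood, Benjamini-Hochberg over all tested genes), and DESeq2 1.42.0 was an alternative. The class comparisons added a class by treatment term with the library as block. The study tested nuclei as replicates with MAST, which was not run here. Astrocytes were nuclei with 3 or more astrocyte genes at 0.3% or more of UMIs, and *Pdgfra* was at 0 CPM in them in all 4 libraries. For thinned values at most 500 astrocytes per library were drawn. Doublets were kept in the main values, and Scrublet's automatic threshold marked 0, 0, 2 and 0 nuclei, so nuclei were marked at 0.8% per 1000 nuclei for the alternative (7, 25, 0 and 0 precursors). Python 3.11.15 with scanpy 1.11.5 and scipy 1.17.1 was used. The tests were tried on simulated counts that gave every gene the same spread between pools, unlike real counts. There the precursor test recovered 12.5% of 200 changes of 1 log2 unit and 95.9% of changes of 2 log2 units. The study describes the pools as independent biological replicates, and p-values measure the spread between pools, not between single mice.

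The gate and the gene lists (precursor, commitment, myelin, cell cycle, receptor, matrix, channel, transport, corticosteroid, early response, other cell types and RNA quality) were chosen with earlier results of these data known. Named genes were the gate genes, every call, the 10 of lowest p whose groups did not overlap, per list the 4 most abundant and the 2 of lowest p, the 15 of largest ratio to other nuclei, all corticosteroid genes and calls between classes. *Chadl*, *Ramp1*, *Mfsd2a*, *G0s2*, *Limd1*, *Syne2*, *Zeb2*, *Acan*, *Bcas1*, *Tns3*, *Bmp4*, *Enpp6*, *Mki67*, *Top2a*, *Slc6a13*, *Pmch*, *Pomc* and *Hcrt* fell outside it and were chosen after their values were seen. Alternatives changed the gate, depth, doublets, filter, scaling, tool, block and libraries. Some members of the lists are not reported here by name.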

Additional observations from a re-analysis of the deposited data

Results flagged for a closer look

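The fold change of DOCA-salt over Sham differed between precursors and mature oligodendrocytes, by the class by treatment term of edgeR, for 9 genes. The differences (precursors minus oligodendrocytes, log2) were −3.80 for *Oxt* (FDR 7.15e-35), 2.61 for *Hba-a1* (1.53e-08), 1.94 for *Hbb-bs* (1.90e-08), −3.36 for *Hdc* (7.28e-05) and 1.31 for *2310022B05Rik* (0.00895). They were 1.77 for *Hba-a2* (0.00968), 0.91 for *S100b* (0.0106), −2.12 for *Ghrh* (0.0174) and 3.85 for *Hbb-bt* (0.0313), and *Hbb-bt* had 0 UMIs in the precursors of Sham 1. Against astrocytes the differences were −2.03 for *Oxt* (FDR 4.17e-05) and −2.42 for *Ghrh* (0.0206). With 1 library left out the differences to oligodendrocytes ranged from −3.94 to −1.97 for *Oxt*, 1.78 to 2.86 for *Hba-a1*, 0.89 to 2.13 for *Hbb-bs*, −4.61 to −0.19 for *Hdc*, 0.95 to 1.44 for *2310022B05Rik*, 0.94 to 1.97 for *Hba-a2*, 0.45 to 1.09 for *S100b*, −2.51 to 0.66 for *Ghrh* and 3.38 to 8.68 for *Hbb-bt*. With the stricter oligodendrocyte gate the *Oxt* difference was −1.30 (FDR 0.0159). The 12 neuron markers summed to a mean of 19015 CPM in the oligodendrocyte class and 15423 CPM with the stricter gate. With 1 library left out the differences to astrocytes ranged from −2.25 to 0.015 for *Oxt* and −2.97 to −1.13 for *Ghrh*. A single nucleus held 91.3% of the *Oxt* UMIs of Sham 2 precursors, 97.1% of the *Hdc* UMIs of Sham 1, 72.6% of the *Ghrh* UMIs of Sham 2 and 38.9% of the *Hba-a1* UMIs of DOCA-salt 2.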

How the results depend on the processing

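The lower level of *Bc1* kept its direction and its FDR under 0.05 in all 15 alternatives (log2 fold change −3.53 to −2.75). The count of called precursor genes was 1 in the main test, 20 with no filter on low counts, 3 with the replicate number as a block and 6 to 138 with 1 library left out. The labels do not say whether replicate numbers pair the pools. The correlation of deviations was −0.064, a single value with 2 pools per group, which cannot decide it. The replicate block called *Oxt*, *Bc1* and *Pmch*. Against oligodendrocytes, calls went from 9 to 0 without the library block, 2 without doublets, 4 with the stricter oligodendrocyte gate (added after seeing the data) and 2 to 10 with 1 library left out. Against astrocytes, calls went from 2 to 10 with no filter, 4 with RLE size factors, 0 without the block, 5 without doublets and 4 to 9 with 1 library left out. Without Sham 2 the *Ghrh* difference to oligodendrocytes turned from −2.12 to 0.66 (range −2.51 to 0.66 with 1 library left out) and the *Oxt* difference to astrocytes from −2.03 to 0.015 (range −2.25 to 0.015). The difference in the commitment share was 3.95 points, −26.4 without thinning, −4.59 at 2000 UMIs and −1.06 to 8.97 with 1 library left out. Of 126 named genes in the precursor contrast, 54 took the opposite sign in at least 1 alternative (137 of 1808 fits), 52 of them with 1 library left out, and 0 of these passed the FDR in the reported test. Among fold changes printed, ranges with 1 library left out crossed 0 for *Smc2* (−0.76 to 0.083), *Nr3c2* (−0.89 to 0.15), *Agt* (−0.00028 to 1.55), *Ntsr2* (−0.074 to 1.28) and *Rgs5* (−4.09 to 0.96). Over all alternatives, some fold changes kept their sign but moved by over 1.5 times. They included *Acvr2b* (−2.19 to −1.02), *Cacng4* (−0.91 to −0.40), *Chadl* (0.22 to 1.05), *Cldn11* (−2.49 to −0.92) and *Gabrg1* (0.64 to 1.89). Further ones were *Hes6* (0.38 to 1.51), *Klf9* (−1.33 to −0.45), *Sgk1* (0.35 to 2.03), *Tgfbr1* (0.68 to 2.63) and *Zbtb16* (−1.69 to −0.43). Those of *Gpr17*, *Hes5*, *Gm42418*, *Kcnj10*, *Lims2*, *Nr3c1*, *Pcna*, *Ramp1*, *Rbfox3*, *S100b*, *Stmn2* and *Atp1b1* also moved by over 1.5 times. The floor of 3 counts was 18.0 CPM in Sham 1, where lower levels could not be told from 0.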
